A study of Mus musculus with 24 samples.

Results

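Ribosomal protein genes encode the proteins of the cytosolic ribosome, and their mRNA levels were read from laser-captured retinal pigment epithelium (RPE), the pigmented layer behind the photoreceptors, over 2 genotypes and 4 circadian times. Members were the rows of the deposited count table whose mouse symbol starts with Rpl or Rps. Of 403 such symbols, 102 were annotated as protein coding. Dropping 10 Rps6k kinases and 6 genes named as pseudogenes (-ps) left 86 members among 54232 identifiers. They comprise 46 proteins of the large subunit, 31 of the small subunit and 9 paralogs or other genes, and they lie on 19 chromosomes. The symbol rule also takes in Rps19bp1, which encodes a protein that binds Rps19 and is not part of the ribosome. All mice were male, 6 weeks old and of the strain C57BL/6/J x 129 SvEvBrd. They were either wild type (WT) or of the genotype labelled Per1-/-Per2Brdm1 (KO in the text), in which both clock genes are altered in the germline. Eyes were collected at CT19, CT22, CT1 and CT10, where CT is circadian time in hours, and were snap-frozen before the RPE was cut out. Each of the 8 groups held 3 libraries, 24 in all, of which 4 KO and 1 WT library pooled RPE from 2 eyes. A pooled library is named by both numbers, such as KO CT22 replicate 1and4.

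A ribosome is built from ribosomal RNA and one copy of most of these proteins, so their genes are usually transcribed at matched levels. Most of their mRNAs start with a C followed by a run of pyrimidines, the terminal oligopyrimidine (TOP) motif, through which mTORC1 and the cap-binding protein Larp1 control their translation. In liver the translation of TOP mRNAs and the synthesis of ribosomes are known to follow the day, under the circadian clock and feeding. The RPE takes up the shed tips of photoreceptor outer segments in a daily burst near dawn, which makes its protein turnover a circadian question as well. PER1 and PER2 are repressors of the clock's activators, which bind E-boxes.

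Start sites are shown first because they carry the motif that sets this family apart. RefSeq start windows on GRCm38.p6 (250 bases before to 50 after each annotated start) were matched by symbol to 66 of the 86 members, and 20 had no entry. A run of at least 5 C or T bases that begins with C, within 5 bases of the start, was present in 30 of the 66 members (45.5%) and in 21.2% of all 27025 genes in the RefSeq table. In 14 members (21.2%) and in 3.01% of all genes, the annotated base itself was a C followed by such a run. Some of these runs began further upstream, so the annotated base was not always their first. Written 5′ to 3′, the stretches below hold 35 bases before the start and 15 from the start on, with the pyrimidine run in capitals. They are 4 members with such a run, and Rps15 and Rpl4, which have none within 5 bases of the annotated start.
Rps6, chr4:86857353-86857402, minus strand: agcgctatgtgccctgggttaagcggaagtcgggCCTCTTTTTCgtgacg
Rpl28, chr7:4792930-4792979, plus strand: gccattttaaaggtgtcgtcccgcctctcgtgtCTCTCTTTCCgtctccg
Rps18, chr17:33955651-33955700, minus strand: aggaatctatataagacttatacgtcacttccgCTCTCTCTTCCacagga
Rps27, chr3:90213634-90213683, minus strand: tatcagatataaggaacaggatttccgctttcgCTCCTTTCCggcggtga
Rps15, chr10:80292396-80292445, plus strand: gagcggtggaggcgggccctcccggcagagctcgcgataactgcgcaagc
Rpl4, chr9:64173352-64173401, plus strand: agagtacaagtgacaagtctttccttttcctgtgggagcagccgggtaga
An annotated start can differ from the base used in this tissue, so a window without a run says only that the letters are not there.

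Other letters were searched on both strands of the whole windows. The E-box CACGTG was present in 6 of 66 members (9.09%), beside 8.09% of all genes. Those members were Rpl13a, Rpl14, Rpl19, Rpl23, Rpl34 and Rps19. Of these, Rpl23 has the E-box nearest to an annotated start, and the 30 bases around it are given with those of Rps19, with the E-box in capitals.
Rpl23, chr11:97782425-97782454, minus strand: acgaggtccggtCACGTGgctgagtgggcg
Rps19, chr7:24884781-24884810, plus strand: tggagccgcggcCACGTGcgagcggcaggc
The D-box TTATGTAA was in 0 members and in 1.11% of all genes, and the nuclear receptor site AGGTCA in 7 members (10.6%) and 18.1% of all genes. The ETS factor motif CGGAAGT was in 23 members (34.8%) and in 7.2% of all genes. These matches are descriptions of the letters and were given no test.

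Total counts ran from 16245067 to 32066263 per library, and 19030 to 24072 genes were detected. RPE genes were abundant in every library: Rpe65, the retinoid isomerase of the visual cycle, ran from 2809 to 7229 CPM (read counts scaled to a common library total). Best1, a chloride channel that also marks the RPE, stayed at 0 to 1.91 CPM. Rod photoreceptor genes were abundant too. The counts of Per1 and Per2 were not lower in the libraries labelled KO at CT19, CT22 or CT1. At CT1 Per1 had a mean of 40.3 ± 5.13 CPM (SD, n = 3) in WT and 164.6 ± 76.3 CPM in KO, while at CT10 the means were 130.6 ± 49.1 and 95.8 ± 20.5 CPM. Counts summed over a whole gene do not show an altered allele, so they neither support nor contradict the KO label, which is used throughout.

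Of all counts, 0.623% ± 0.117 (SD over 24 libraries) fell on the 86 members. Large-subunit genes took 0.348% ± 0.0649 and small-subunit genes 0.263% ± 0.0522. The ratio of the 2 subunits was narrow, with 69.6 to 81.1 small-subunit reads for every 100 large-subunit reads in each library. The share was between 0.440% (KO CT19 replicate 2) and 0.979% (KO CT22 replicate 2). In WT it was 0.581% ± 0.108 at CT19 (SD, n = 3), 0.592% ± 0.0756 at CT22, 0.688% ± 0.0718 at CT1 and 0.648% ± 0.0156 at CT10. In KO it was 0.560% ± 0.106 at CT19, 0.670% ± 0.268 at CT22, 0.535% ± 0.0450 at CT1 and 0.714% ± 0.0636 at CT10. CT1 thus had the highest mean share in WT and the lowest in KO. At CT1 the WT libraries held 0.609%, 0.705% and 0.749% and the KO libraries 0.483%, 0.559% and 0.563%, so the groups did not overlap. At CT22 one KO library, replicate 2, held 0.979%, while the other two held 0.498% and 0.534%. Rows named as ribosomal protein pseudogenes took a further 0.0202% to 0.0493% of the counts per library.

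**Figure D1:**
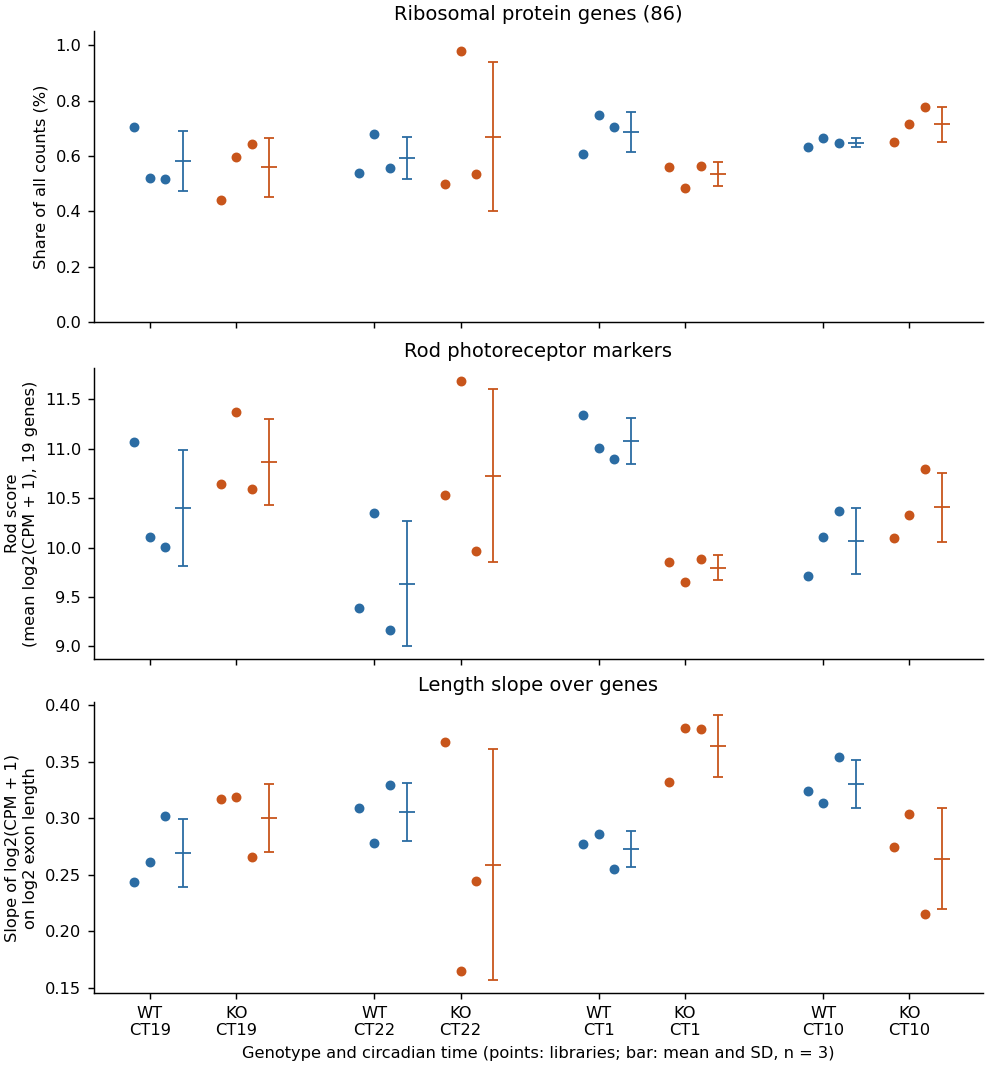
Share of all counts on the 86 ribosomal protein genes (top, %), rod score (middle, mean log2(CPM + 1) of 19 rod genes) and length slope (bottom, slope of log2(CPM + 1) on log2 exon length over genes) for each library (points), with mean and SD beside each group of 3 (blue WT, orange KO). The share at CT1 was 0.688% in WT and 0.535% in KO, and KO CT22 replicate 2 stands alone at 0.979% with the highest rod score and the lowest length slope.

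Other measures of the libraries differed between groups as well, and whether they follow that share was not tested. Fewer cells of a type and less RNA per cell cannot be told apart in bulk samples. The rod score, the mean log2(CPM + 1) of 19 rod photoreceptor markers (19 of 19 tested), was 11.1 ± 0.235 in WT and 9.80 ± 0.125 in KO at CT1. At CT19 it was 10.4 ± 0.5865 in WT and 10.87 ± 0.434 in KO, while the members' share was 0.581% and 0.560%. The summed level of these 19 genes ran from 70260 to 97830 CPM in the WT libraries at CT1 and from 29620 to 35700 CPM in the KO libraries. At CT22 it ran from 20720 to 47250 CPM in WT and from 35960 to 117600 CPM in KO, and at CT10 from 31040 to 49370 and from 38510 to 63070 CPM. All 19 of these genes were detected in every library. The length slope, the slope of log2(CPM + 1) on log2 exon length over genes of at least 5 CPM, was 0.273 ± 0.0160 in WT and 0.364 ± 0.0272 in KO at CT1. A higher slope means that longer transcripts have relatively higher CPM; whether it bears on the members' share was not tested. KO CT22 replicate 2 had the highest rod score (11.7), the lowest length slope (0.165) and the lowest score of choroid markers (4.36) of the 24 libraries.

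Levels between genes are compared per kb of exons (CPM per kb, mean of 24 libraries). The length is the union of all annotated exons of a gene, so it can exceed that of the mRNA in use. The medians of the subunits were alike, 26.5 CPM per kb for 46 large-subunit genes and 25.9 for 31 small-subunit genes. Rplp1, one of the acidic proteins of the stalk that recruits elongation factors, was highest at 446 CPM per kb. It was followed by Rps15, a protein of the head of the small subunit, at 321, Rpl8, which lies next to the peptidyl transferase centre, at 265.3, and Rpl4, which lines the exit tunnel of the nascent chain, at 249.5. On this scale these 4 genes stood apart from the other members. The order depends on the length used: Rps3, at rank 17, had 295.7 CPM over 4483 bases, and Rplp1 222.6 CPM over 499 bases. The lowest were Rpl10l, with 0 reads in all libraries, which allows up to 3 reads by counting error, Rpl39l at 0.107, Rpl24 at 0.322 and Rpl3l at 0.367 CPM per kb. Rpl10l and Rpl39l did not pass the filter on low counts, which left 84 tested members, 9 of them under 5 CPM.

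**Figure D2:**
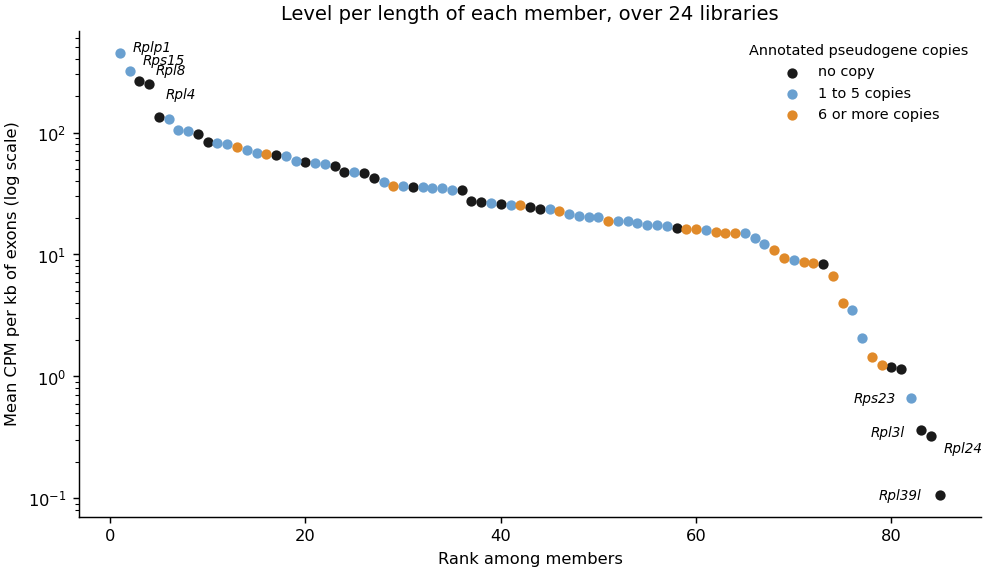
Mean level of each member per kb of its annotated exons over 24 libraries (log scale) against its rank, coloured by the number of annotated pseudogene copies that carry its symbol. Rplp1, Rps15, Rpl8 and Rpl4 lead at 446 to 249.5 CPM per kb, and most members with 6 or more copies lie in the lower part; Rpl10l, at 0, is not drawn.

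Many members have near-identical copies in the genome, so their counts depend on how reads that match several places were treated, which is not given in the sources used here. By symbol, 60 of the 86 members have at least 1 annotated pseudogene copy, and the annotation holds 300 such Rpl or Rps copies in all. Copies that carry other names are not counted here. Among the 77 subunit genes, the median level was 47.1 CPM per kb in 18 genes with no copy, 35.5 in 28 with 1 to 2, 23.2 in 12 with 3 to 5 and 15.1 in 19 with 6 or more. Core ribosomal proteins were among the very low genes. Rpl17, Rpl23a and Rpl21, with 11, 14 and 15 copies, had 1123, 1854 and 2368 reads over all 24 libraries, while Rpl4, with 0 copies, had 286610. Rps23, with 2 copies, had 509 reads and Rpl24, with 0 copies by symbol, had 191. Low counts of these genes are therefore uncertain as levels of their mRNAs.

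Some ribosomal proteins have a paralog of restricted expression, and 5 pairs were compared per kb of the same union of annotated exons. Rpl3l, the form of Rpl3 found in striated muscle, was at 1.08 ± 1.55 per 100 of Rpl3 (SD, n = 24). Rpl10l, a retrogene form of Rpl10 used in the testis, was at 0 reads and Rpl39l, the testis form of Rpl39, had 50 reads in all. Rpl36al was at 4.41 ± 1.497 per 100 of Rpl36a. Rps27rt, a single-exon relative of Rps27, had 250 reads in all. Higher ratios were found in the other pairs: Rpl22l1 stood at 22.05 ± 5.14 per 100 of Rpl22, Rps27l, a p53-induced form, at 24.3 ± 5.99 per 100 of Rps27, and Rpl7l1 at 27.1 ± 7.08 per 100 of Rpl7. By group the ratio of Rpl7l1 to Rpl7 was lowest in WT at CT1 (22.1 ± 3.66, n = 3) and highest in KO at CT1 (33.3 ± 7.84, n = 3). Within WT the ratio was almost as wide apart, at 22.3 ± 4.44 at CT10 and 32.5 ± 8.21 at CT22. That of Rpl22l1 to Rpl22 ran from 16.6 ± 3.13 in KO at CT22 to 26.2 ± 5.42 in WT at CT22. Rps4l, the autosomal relative of the X-linked Rps4x, is annotated as a transcribed processed pseudogene and is not a member. Rps4x itself was at 58.4 CPM per kb.

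Members varied together from library to library. After each group's mean was taken out, the median correlation between pairs of the 75 members of at least 5 CPM was 0.677 over 24 libraries, and 96.6% of the pairs were above 0. Over all 11567 tested genes of that level, the median was 0.001 and 50.1% of pairs were above 0. The points of these correlations share libraries, scaling and depth, so they are given as a description. The members' median deviation from their mean log2(CPM + 1) was highest in KO CT22 replicate 2, at 0.680. Its SD was 0.542 within KO CT22 and 0.0387 to 0.233 within the other groups. How far the correlations rest on that group or library was not tested. The spread over libraries was much like that of other genes, with a median coefficient of variation (CV) of 24.1% in the 75 members and 21.8% in all genes of that level. Rpl10, which joins the large subunit late in assembly, had the smallest CV (13.8%), followed by Rpl41, a very short basic peptide (14.4%), and Rpl18 (16.2%). Rpl30 (51.3%), Rps2 (48.3%) and Rps29 (47.5%) had the largest, and Rpl30 and Rps2 have 9 and 11 pseudogene copies.

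Several members are used as reference genes in quantitative PCR, which assumes a steady level. Rplp0, the base of the stalk, was highest in WT at CT1 (79.1 CPM) and lowest in KO at CT1 (42.9 CPM), a 1.84-fold difference of group means. Rpl13a differed by 1.42-fold between its highest group, KO at CT10 (21.1 CPM), and its lowest, KO at CT1 (14.8 CPM). Rpl32 differed by 1.47-fold, Rpl19 by 1.53-fold, Rps18 by 1.59-fold, Rpl4 by 1.73-fold and Rps29 by 2.97-fold. For all 7 the lowest group was KO at CT1. The highest was WT at CT1 for Rplp0, Rps18 and Rps29, KO at CT22 for Rpl4 and Rpl19, and KO at CT10 for Rpl13a and Rpl32. The KO CT22 means of Rpl4 and Rpl19 rested on replicate 2, at 966.8 and 29.85 CPM. The other KO libraries at CT22 had 414.1 and 458.1 CPM of Rpl4, and 13.26 and 13.96 CPM of Rpl19. In the tests given next, with all libraries, none of the 7 passed in edgeR, while in DESeq2 Rps29 passed for KO against WT at CT1 and Rpl4 in the interaction of genotype and time.

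The genotype comparison at CT1 held the largest shift of the family. Of 84 tested members, 80 had a lower fitted level in KO than in WT, beside 50.7% of all genes tested, and the median log2 fold change was -0.45 against -0.01 over all 20275 genes. In 44 members all 3 KO libraries lay below all 3 WT libraries, where 14.6% of all genes did so, and in 0 members all 3 lay above (10.1% of all genes). In edgeR's quasi-likelihood test no member passed, where 0.533% of all genes did, at a threshold of 0.05 on the Benjamini-Hochberg adjusted p. At an unadjusted p under 0.05 there were 31, all lower in KO, beside 11.9% of all genes in that direction. DESeq2 passed 2 members, Rps15 and Rps29, beside 7.13% of the genes it adjusted. The medians of the large subunit (-0.46, 46 genes) and the small subunit (-0.44, 31 genes) were near each other, and 24 of 24 tested members with no pseudogene copy were lower (median -0.53).

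Rps15 had the lowest p of the family at CT1. It was at 228.0, 255.5 and 232.4 CPM in the WT libraries and at 153.5, 131.2 and 130.8 CPM in the KO libraries. Every KO library lay well below every WT library, with a log2 fold change of -0.79 ± 0.24 (SE, adjusted p = 0.0892). Rps6, the small-subunit protein that S6 kinases phosphorylate downstream of mTORC1, was at 32.7, 35.2 and 35.8 CPM in WT and at 23.3, 18.5 and 16.4 CPM in KO. Again the groups did not overlap (log2 -0.83 ± 0.27, adjusted p = 0.096). Rps3a1, on the platform of the small subunit, was at 55.2, 64.7 and 59.9 CPM in WT and at 32.8, 33.1 and 42.6 CPM in KO (log2 -0.73 ± 0.23, adjusted p = 0.0979). All 3 were high in WT and low in KO at this time, without passing.

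Rps29, a zinc-binding protein of the small subunit, had the widest difference of the well-measured members. It was at 80.1, 176.2 and 74.9 CPM in WT at CT1 and at 44.2, 32.7 and 34.8 CPM in KO. The groups did not overlap, but 1 WT library, the pool 3and6, was far above the other two (log2 -1.57 ± 0.49, adjusted p = 0.0989). The 3 stalk proteins were lower together, Rplp0 by a log2 of -0.88 ± 0.31 (adjusted p = 0.132), Rplp1 by -0.68 ± 0.27 (0.162) and Rplp2 by -0.65 ± 0.25 (0.145). Rpl5 and Rpl11, which bind 5S ribosomal RNA and hold back Mdm2 when free of the ribosome, had values of -0.48 ± 0.21 and -0.55 ± 0.27 (adjusted p = 0.206 and 0.265). The members with the smallest CV, Rpl10 and Rpl41, had log2 values of 0.00 ± 0.16 (adjusted p = 0.992) and -0.09 ± 0.19 (0.849), and both took either sign with the setting.

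**Figure D3:**
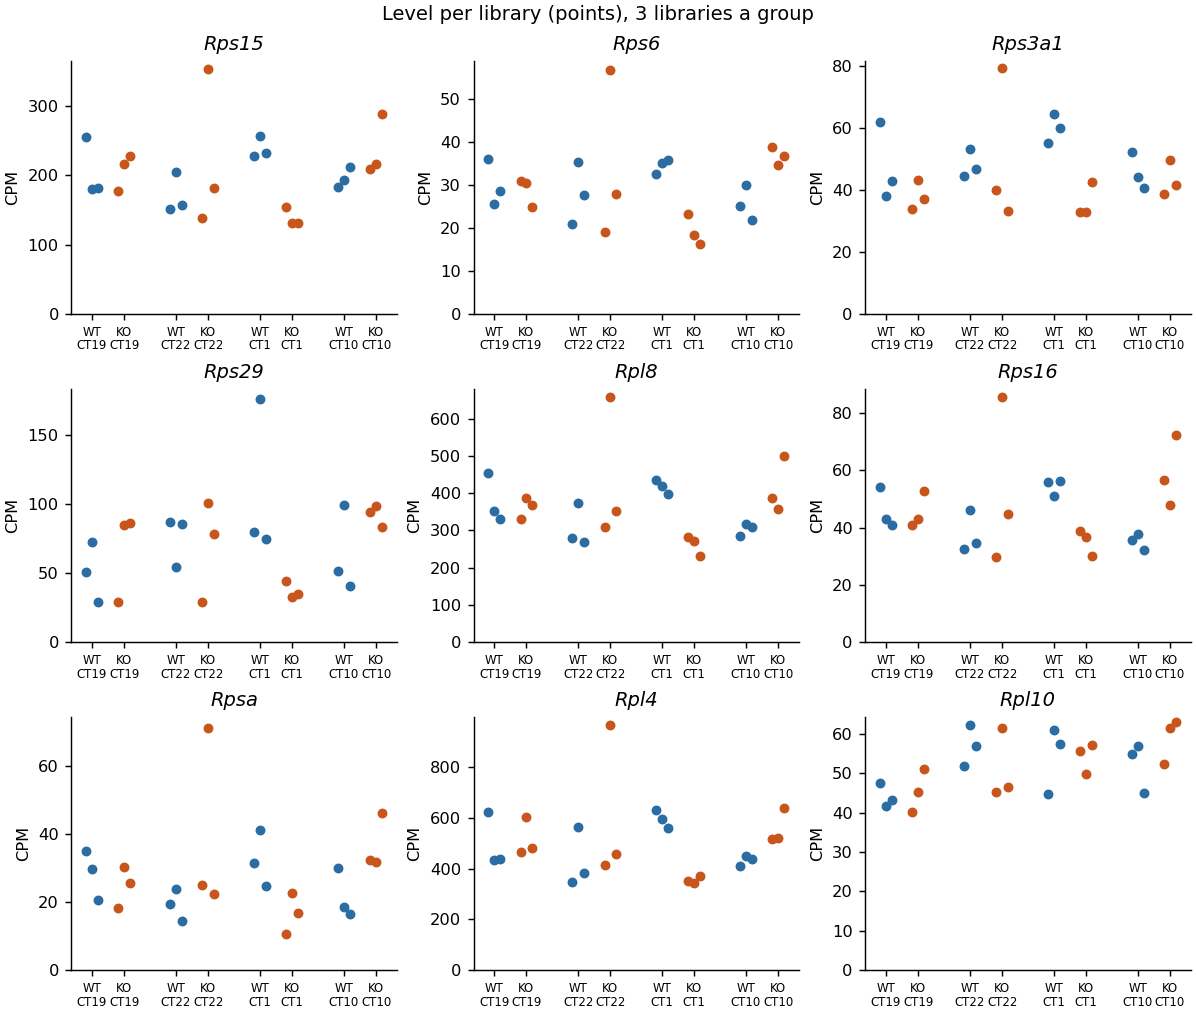
CPM of 9 members in each library (points, 3 per group, blue WT, orange KO; axes from 0) by genotype and circadian time. In Rps15, Rps6, Rps3a1, Rps29, Rpl8, Rps16, Rpsa and Rpl4 the KO libraries at CT1 all lie below the WT libraries, and in Rpl10 (44.7 to 61.0 CPM in WT at CT1) they do not.

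The CT1 shift changed when the rod score or the length slope given above entered the fit. When the rod score was added to the fit as a covariate, the median of the 84 members at CT1 was -0.002, and with the length slope it was -0.010. With a score of choroid markers it was -0.312. These covariates also differ between the groups. Of the marker lists at CT1, 19 of 19 rod (median -1.29), 8 of 10 inner retina (-1.06) and 8 of 8 muscle genes (-3.10) were lower in KO. Of the mitochondrial genome 11 of 12 were lower (-0.30), and 3 passed in edgeR, beside 0.533% of all genes. Mostly higher were immune (9 of 9, 0.75), choroid fibroblast (8 of 9, 0.41) and RPE genes (11 of 15, 0.19). DESeq2 passed 9 rod, 2 inner retina and 2 mitochondrial genome genes, beside 7.13% of the genes it adjusted. The part of these covariates and markers was not tested. KO CT22 replicate 2 does not enter this contrast but enters the shared estimate of the spread, and the count of calls turned on it. Without it, 11 of 85 tested members passed in edgeR, all lower in KO, beside 3.69% of all genes. Among them were Rps15, Rps6, Rps3a1, Rpl8, Rpl4, Rpl7, Rps18, Rpl14, Rps20 and Rpl26, with log2 values of -0.63 (Rps20) to -0.83 (Rps6).

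At CT22 the median lay on the other side. It was 0.23 (0.03 over all genes), and 65 of 84 members had a higher fitted level in KO, beside 52.7% of all genes. No member passed in edgeR, where 0.227% of all genes did, or in DESeq2 (1.44%), and 6 had an unadjusted p under 0.05, all higher in KO (9.02% of all genes in that direction). In 1 member, Rpl21, the KO libraries lay wholly above the WT libraries and in 1, Rps27l, wholly below, where 8.01% and 4.79% of all genes did. Rpl21, a large-subunit protein with few reads, was at 3.14, 1.051 and 2.16 CPM in WT and 3.17, 8.18 and 4.07 CPM in KO (log2 1.29 ± 0.44, adjusted p = 0.22). The groups did not overlap, but the lowest KO and the highest WT library were almost level. Rpsa, the ribosomal protein also known as the laminin receptor precursor, was at 19.3, 24.0 and 14.6 CPM in WT and 25.1, 71.4 and 22.4 CPM in KO (log2 1.04 ± 0.37, adjusted p = 0.244). Rpl8 was at 278.5, 374.7 and 269.2 CPM in WT and 309.9, 657.8 and 352.0 CPM in KO (log2 0.52 ± 0.23, adjusted p = 0.328). In each of the 3 the highest value was that of KO replicate 2, and the other KO values were within or close to the WT range. Without that library, the median was -0.245 and 14 of 84 members were higher in KO. Adding the rod score to the fit gave a median of -0.232, with the choroid score -0.084 and with the length slope -0.062, and the part of these measures was not tested.

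At CT10 the KO libraries were again the higher ones for most members. The median was 0.22 (0.09 over all genes), 64 of 84 members had a higher fitted level in KO (55.5% of all genes), and in 21 all 3 KO libraries lay above all 3 WT libraries, beside 17.7% of all genes. In 2 members with few reads, Rpl17 and Rpl29, they all lay below, beside 12.4%. No member passed in edgeR, where 0.0345% of all genes did, or in DESeq2 (4.82%), and 9 had an unadjusted p under 0.05, 7 higher in KO (10.7% of all genes) and 2 lower (7.12%). Rps16, whose tail reaches the tRNA in the P site, was at 35.8, 37.9 and 32.2 CPM in WT and 56.6, 47.8 and 72.5 CPM in KO. The groups did not overlap (log2 0.74 ± 0.25, adjusted p = 0.141). Rpl7l1, the paralog of Rpl7, was at 50.1, 63.2 and 39.5 CPM in WT and 91.2, 61.9 and 69.9 CPM in KO, with 1 KO library below the highest WT library (log2 0.55 ± 0.20, adjusted p = 0.167). Rps19bp1 was at 15.9, 12.8 and 10.6 CPM in WT and 20.1, 17.7 and 19.7 CPM in KO, with no overlap (log2 0.55 ± 0.21, adjusted p = 0.182). The median at CT10 was -0.126 with the length slope as a covariate and 0.056 without KO CT10 replicate 4. Some marker lists were also higher in KO at CT10, with 9 of 10 inner retina genes (median 0.98), 17 of 19 rod genes (0.39) and 11 of 15 RPE genes (0.27). Of the inner retina genes 4 passed in DESeq2 and none in edgeR. Other lists went the other way, with 6 of 8 choroid mural (-0.12), 6 of 9 choroid fibroblast (-0.17) and 6 of 8 muscle genes (-1.50) lower in KO. Of 8 cone genes 4 were higher and 4 lower. The part of these markers was not tested.

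At CT19 and over all times the member medians lay nearer to 0. At CT19 the median was -0.12 (-0.01 over all genes), 68 of 84 members had a lower fitted level in KO (51.3% of all genes), and 5, among them Rpl7l1, Rpl17, Rpl18 and Rpl39, lay wholly below the WT libraries (5.31% of all genes). No member passed in edgeR (0.0691% of all genes) or in DESeq2 (0.245%), and none had an unadjusted p under 0.05 in edgeR (3.47%). Without WT CT19 replicate 1 the median was 0.045, and it was 0.016 with the length slope, -0.302 with the rod score and -0.325 with the choroid score as a covariate. Of the marker lists at CT19, 15 of 15 RPE genes (median -0.21), 12 of 12 of the choroid endothelium (-0.49), 6 of 6 of melanocytes (-0.93) and 12 of 12 of the mitochondrial genome (-0.65) were lower in KO, and 19 of 19 rod genes higher (0.42). Blood (5 of 5, -0.94) and choroid mural genes (7 of 8, -0.43) were also mostly lower, and 8 of 8 muscle genes higher (0.82). None of these markers passed in edgeR, while DESeq2 passed 1 melanocyte and 1 choroid mural gene, beside 0.245% of the genes it adjusted. The part of these markers in the member values was not tested. The lowest p belonged to Rpl7l1 (log2 -0.36 ± 0.20), Rps27l (-0.41 ± 0.26) and Rpl23a (-2.87 ± 1.85), each with an adjusted p of 1. Rpl23a rested on 1 library: WT replicate 2 had 12.01 CPM, while the other 5 libraries at CT19 had 0 to 0.995 CPM, and without it the log2 value was 0.49. For the average of the 4 genotype differences the median was -0.03 (0.02 over all genes), and 50 of 84 members were lower in KO (45.3% of all genes). No member passed in edgeR (0.375% of all genes) or in DESeq2 (0.834%). In edgeR 1 member, Rps3a1, had an unadjusted p under 0.05, beside 7.07% of all genes (log2 -0.26 ± 0.12, adjusted p = 0.624). Rpl39, which lies in the exit tunnel, and Rpl34 came next, at -0.24 ± 0.12 and -0.28 ± 0.16 (adjusted p = 0.714 and 0.778). Without KO CT22 replicate 1and4 this median was 0.026, without replicate 2 it was -0.148, without the 5 pooled libraries 0.039 and with the replicate number as a block 0.025.

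**Figure D4:**
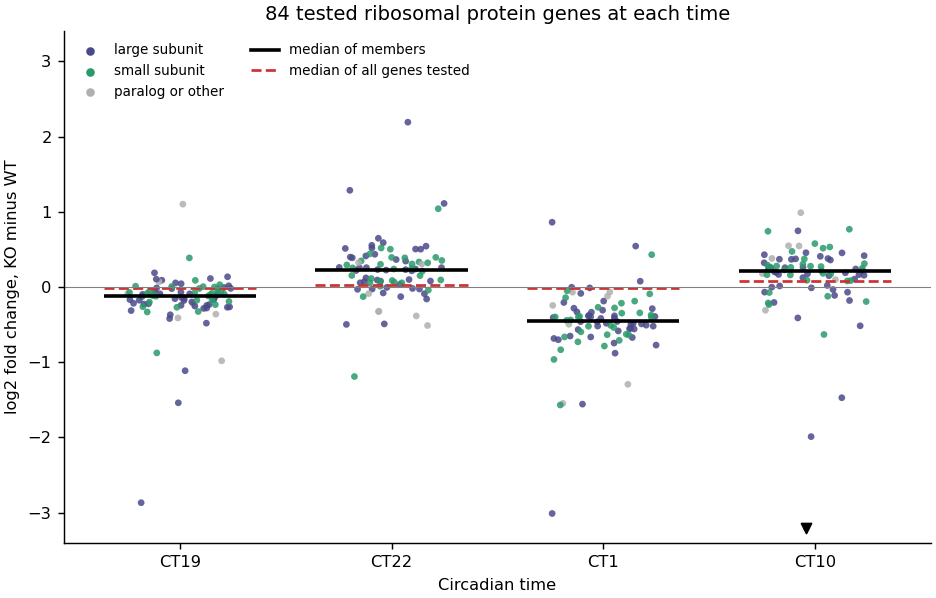
Log2 fold change, KO minus WT, of the 84 tested members at each circadian time (points, by subunit), with the median of the members (black) and of all 20275 genes tested (red, dashed). The member median was -0.12 at CT19, 0.23 at CT22, -0.45 at CT1 and 0.22 at CT10; the triangle marks Rpl29 at CT10, whose value of -4.58 lies off the axis.

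Over the 4 times in WT, the range on the log2 scale, from the lowest to the highest fitted group, had a median of 0.40 in members and 0.72 in all genes. Among genes of at least 5 CPM it was 0.37 in 75 members and 0.49 in all 11567, and the difference was not tested. No member passed the test of any time difference in WT, where 0.947% of all genes did, or in DESeq2 (7.46%), and 4 had an unadjusted p under 0.05 (19.3% of all genes). Of the 84 members, 53 had their highest WT group mean at CT1, beside 28.6% of all genes, and 39 their lowest at CT22, beside 23.8%. The lowest p belonged to Rps19bp1 (range 0.66), Rpl36a (0.55) and Rpl21 (1.31), with adjusted p of 0.201, 0.201 and 0.203. Rpl36a, a large-subunit protein, was at 28.4 to 41.4 CPM in the WT libraries at CT22 and at 48.9 to 50.9 CPM at CT10. These 2 times did not overlap, but the gene was picked for a low p in these same libraries. How many of all genes separate in this way was not counted.

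In KO the median range was 0.56 in members and 0.63 in all genes, but among genes of at least 5 CPM it was 0.53 in members and 0.41 in all. No member passed, as no gene of all tested did (0%), nor in DESeq2 (1.94%), and 22 members had an unadjusted p under 0.05, beside 11.7% of all genes. The order of the times was another one: 57 of 84 members had their highest KO group mean at CT10, beside 22.6% of all genes, and 53 their lowest at CT1, beside 38.6%. Rps6 was at 16.4 to 23.3 CPM at CT1 and at 34.6 to 38.8 CPM at CT10 (range 0.92, adjusted p = 0.317). Rpsa was at 10.7 to 22.7 CPM at CT1 and at 31.9 to 46.4 CPM at CT10 (range 1.25, adjusted p = 0.327). In both genes every library at CT10 lay above every library at CT1. These genes were picked for a low p in these same libraries, so the separation adds no support. The share of all genes so separated was not counted.

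The difference between the genotypes in their time course was tested as an interaction. No member passed, where 4.62% of all genes did, and 21 had an unadjusted p under 0.05, beside 22.3% of all genes, so the share of members was near the background. Closest to the threshold were Rpl8 (range of the genotype differences 1.19, adjusted p = 0.0559), Rps16 (1.37, adjusted p = 0.0565) and Rpsa (2.00, adjusted p = 0.058). DESeq2 passed 4 members, Rpl8, Rps16, Rpsa and Rpl4, beside 15.8% of the genes it adjusted. Rpl8 was at 398.8 to 434.2 CPM in WT and 231.6 to 282.4 CPM in KO at CT1, and at 284.3 to 315.7 CPM in WT and 356.5 to 500.4 CPM in KO at CT10. KO lay wholly below WT at the first time and wholly above it at the second. In all, 18 of 84 members lay wholly below the WT libraries at one time and wholly above them at another, beside 13.1% of all genes. The edgeR count moved with single CT22 libraries. Without KO CT22 replicate 1and4 it was 10 of 85 tested members, beside 7.9% of all genes. Without KO CT22 replicate 2 it was 3 (Rpl8, Rps6 and Rps16), beside 4.02%. Without KO CT22 replicate 3 it was 4 (Rpl8, Rpl4, Rpsa and Rps16), beside 6.91%, and without WT CT22 replicate 3 it was 1 (Rpl9), beside 5.75%.

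The genes that make and regulate ribosomes were read from lists of known members. Here and for the mitochondrial genes below, passing refers to edgeR's test unless DESeq2 is named. Ribosome biogenesis factors (42 tested) had a median of 0.31 at CT22, or 0.22 without KO CT22 replicate 2, and -0.27 at CT1. At CT22 1 of 42 passed, beside 0.227% of all genes: Ltv1, which helps to assemble and export the small subunit, rose from 10.98 ± 0.891 CPM in WT to 24.5 ± 4.78 CPM in KO (SD, n = 3; log2 1.16 ± 0.22, adjusted p = 0.0144). Ltv1 no longer passed in edgeR's test without KO CT22 replicate 2 (log2 0.96, adjusted p = 0.292), WT CT22 replicate 1 (1.17, 0.0891) or WT CT22 replicate 6 (1.10, 0.111). The call was also lost when the rod score (0.76, adjusted p = 0.466) or the choroid score (0.90, 0.234) entered the fit, without the pooled libraries (1.20, 0.0614) and in a fit of only the 2 groups (1.13, 0.382). In the interaction 4 of 42 passed, beside 4.62% of all genes, among them Wdr75, a factor of the small-subunit processome (range 1.60, adjusted p = 0.0248), Ltv1 (1.37, 0.043) and Nhp2, a protein of pseudouridine-guiding particles (1.22, 0.0378). As each of the 24 libraries was left out in turn, Wdr75 still passed in 15 fits, Ltv1 in 6 and Nhp2 in 5. Wdr75 was at 18.6 ± 0.480 CPM in WT and 11.2 ± 1.70 CPM in KO at CT1, and at 11.6 ± 3.23 and 21.1 ± 4.24 CPM at CT22. DESeq2 passed 11 of the 42 biogenesis factors in the interaction, 2 at CT22 and 3 at CT1, beside 15.8%, 1.44% and 7.13% of the genes it adjusted. It also passed 2 for time in WT (7.46%) and 1 for time in KO (1.94%). RNA polymerase I and its factors (18 tested) had no gene that passed in edgeR in any of the 8 contrasts, with up to 5 at an unadjusted p under 0.05, in the interaction. DESeq2 passed 1 at CT10 and 1 for time in WT, beside 4.82% and 7.46% of the genes it adjusted.

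Other mRNAs with a TOP start, such as those of translation factors (25 tested), lay near the ribosomal protein genes, with medians of -0.05 at CT19, 0.36 at CT22 (0.00 without KO CT22 replicate 2), -0.52 at CT1 and 0.35 at CT10. At CT1 24 of the 25 were lower in KO and none passed in edgeR, with 17 at an unadjusted p under 0.05, beside 11.9% of all genes in that direction. DESeq2 passed 4 at CT1 and 11 in the interaction, beside 7.13% and 15.8% of the genes it adjusted. In edgeR 2 of 25 passed in the interaction, beside 4.62% of all genes. These were Nap1l1, a histone chaperone (range 1.30, adjusted p = 0.0412), and Eif3k, a subunit of an initiation factor (0.91, 0.0343). Of the 24 fits that leave out a library, Nap1l1 still passed in 7 and Eif3k in 6. Of 41 regulators around mTORC1 and TOP translation, 6 passed in edgeR in the interaction, beside 4.62% of all genes, and none in the other 7 contrasts. DESeq2 passed 8 in the interaction and 2 at CT1, beside 15.8% and 7.13% of the genes it adjusted. It also passed 4 at CT10 and 4 for time in WT, beside 4.82% and 7.46%. The widest of the 6 in edgeR were Rragb, a Rag GTPase that brings mTORC1 to the lysosome (range 2.07, adjusted p = 0.0458), Zfp598, which marks collided ribosomes (1.46, 0.0281), and Max, the partner of Myc (1.17, 0.0358). With each library left out in turn, Zfp598 still passed in 15 of 24 fits, Max in 8 and Rragb in 4. At CT1 Rragb was at 18.5 ± 3.93 CPM in WT and 9.84 ± 0.503 CPM in KO, and Zfp598 at 94.7 ± 27.8 and 168.8 ± 6.47 CPM. None of 15 p53 pathway genes linked to free ribosomal proteins passed in edgeR in any contrast, with up to 6 at an unadjusted p under 0.05, in the interaction. DESeq2 passed 3 in the interaction, beside 15.8% of the genes it adjusted. It also passed 1 each at CT10 (4.82%), for time in WT (7.46%) and for time in KO (1.94%).

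The mitochondrial ribosome has its own proteins, encoded by Mrpl and Mrps genes, and 77 of them were tested. Their medians had the same signs as those of the cytosolic members, -0.09 at CT19, 0.19 at CT22 (-0.0012 without KO CT22 replicate 2), -0.30 at CT1 and 0.34 at CT10. At CT1 68 of the 77 were lower in KO and 1 passed, beside 0.533% of all genes. This was Mrpl49, which fell from 161.7 ± 9.55 CPM in WT to 83.1 ± 11.2 CPM in KO (log2 -0.96 ± 0.18, adjusted p = 0.0135). The call ended without KO CT1 replicate 5 (log2 -0.84, adjusted p = 0.117 by edgeR), WT CT1 replicate 2 (-0.90, 0.0991) or the WT CT1 pool 3and6 (-0.97, 0.0603). It also ended when the rod score (-0.52, adjusted p = 0.579) or the length slope (-0.71, 0.308) entered the fit, and without the pooled libraries (-0.97, 0.131). It also passed for time in WT (range 0.88, adjusted p = 0.0423), with its lowest WT level at CT10 (88.0 ± 9.53 CPM). In the interaction Mrpl49 (range 1.44, adjusted p = 0.018) and Mrpl28 (1.498, 0.0418) passed. Leaving out each library in turn, Mrpl49 still passed in 19 of 24 fits of the interaction and in 4 of 24 for time in WT, and Mrpl28 in 5 of 24. DESeq2 passed 5 of the 77 at CT1 and 6 in the interaction, beside 7.13% and 15.8% of the genes it adjusted. It also passed 2 at CT10 (4.82%), 2 for time in WT (7.46%) and 1 for time in KO (1.94%). No test of a difference between the cytosolic and the mitochondrial members was made.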

How the data were processed

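RNA of 24 libraries was sequenced, and the deposited values are raw counts of reads per gene, which the authors left without normalization. The submitters' processing notes name HTSeq 0.11, Cufflinks, HISAT2 2.1.0 and Trimmomatic 0.32, and the build GRCm38.p6. Their roles, the strand setting and the treatment of reads that match several places are not given in the sources used here. Symbols, gene types and exon lengths came from GENCODE vM21, which matched 54165 of 54232 identifiers. Per the labels, libraries were grouped by genotype and time. The labels do not say that each library came from another animal, and p-values therefore reflect only the spread between libraries, which may be technical. Between libraries of a group, chi-square per degree of freedom was at least 25.4, and none was a repeat.

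The count test was edgeR 4.0.16 (R 4.3.3): filterByExpr (minimum count 10) over 8 groups kept 20275 genes, TMM scaling, 1 robust quasi-likelihood model with 16 residual degrees of freedom, and Benjamini-Hochberg adjustment over all genes at 0.05. The 8 contrasts were the genotype difference at each time and on average, any time difference in each genotype, and the interaction. Their pipeline was tested on simulated data. CPM used TMM factors, and rod and choroid scores and the length slope used log2(CPM + 1). Totals of 16245067 to 32066263 counts set the precision, and 9 tested members under 5 CPM are imprecise. DESeq2 1.42.0 and other settings were alternatives. Members, lists and rules were chosen with earlier results of these data known. For each contrast the named genes were those that passed or else the 3 lowest p, with fixed paralog pairs, reference genes, stalk proteins, Rps6, Rpl5, Rpl11, and extremes of level and CV. Up to 3 genes per list and contrast that passed were named. Members that passed only under an alternative, Rpl9 and Rpl29 among them, were named after their values were seen. Some genes that these rules name are not reported here.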

Additional observations from a re-analysis of the deposited data

Results flagged for a closer look

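Of the genes named by rule, Rps6, Rps16, Rpl8, Rpsa and Rps19bp1 had KO libraries wholly below the WT libraries at one time and wholly above them at another. Rps6 had a log2 difference, KO minus WT, of -0.83 at CT1 and 0.52 at CT10. Rps16 had -0.63 and 0.74, Rpl8 -0.67 and 0.45, Rpsa -0.96 and 0.77, and Rps19bp1 -0.50 and 0.55 at the same times. The difference between times was tested as the genotype by time interaction in edgeR, and none of these genes passed, with adjusted p of 0.0559 for Rpl8, 0.0565 for Rps16, 0.058 for Rpsa, 0.0808 for Rps6 and 0.0846 for Rps19bp1.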

How the results depend on the processing

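No member passed in any of the 8 contrasts with RLE scaling, a mean of at least 5 CPM, the rod, choroid or length slope covariate, or without the 5 pooled libraries. Without a filter on low counts, 85 members were tested. Those that passed numbered 2 on average (Rpl29, Rpl23a), beside 1.16% of all genes, and 1 at CT19 (Rpl23a), beside 0.358%. At CT22 there were 3 (Rpsa, Rpl23a, Rpl30), beside 2.47%, and at CT1 16, beside 4.76%. At CT10 there were 3 (Rps16, Rpl27a, Rpl29), beside 3.06%. Time in WT gave 4 (Rps29, Rpl23a, Rpl30, Rpl34), beside 6.61%. Time in KO gave 12, beside 3.83%, and the interaction 18, beside 8.22%. DESeq2 passed 2 of 84 at CT1 and 4 in the interaction, beside 7.13% and 15.8% of the genes it adjusted. Fits of only the 2 groups compared passed 9 of 83 at CT1, beside 3.98% of all genes. At CT10 they passed 2 of 81 (Rps16, Rpl17), beside 5.28%. The cause was not tested. Leaving out each library in turn, counts ran from 0 to 11 at CT1 and 0 to 10 in the interaction and stayed at 0 to 0 in the other 6 contrasts. The median of the members then ran from -0.148 to 0.026 on average, -0.205 to 0.045 at CT19, -0.245 to 0.471 at CT22, -0.523 to -0.373 at CT1 and 0.056 to 0.238 at CT10, and the mean share of counts from 0.608% to 0.631%. Medians moved to -0.232 (rod score), -0.084 (choroid score) and -0.062 (length slope) at CT22, to -0.002 (rod score) and -0.010 (length slope) at CT1, and to -0.126 (length slope) at CT10. Medians under every setting were added after seeing the data. Of the genes that were near 0 at CT1, Rpl10 moved to 0.034 (RLE scaling and DESeq2), 0.002 (no filter), 0.081 (mean of at least 5 CPM), 0.119 (replicate block), 0.169 (rod score), 0.045 (choroid score), 0.195 (length slope), 0.183 (without pooled libraries) and 0.014 (only 2 groups), and Rpl41 to 0.073 (replicate block), 0.156 (rod score), 0.27 (length slope) and 0.109 (without pooled libraries). Leaving out each library in turn they ran from -0.114 to 0.089 and from -0.16 to 0.007. Other turned values were Rpl11 at CT1 (0.017) and Rpl8 at CT22 (-0.021) with the rod score, and Rpl23a at CT19, which ran from -3.406 to 0.49 as libraries were left out, the last without WT CT19 replicate 2.

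With the replicate number as a block, 0 members passed in each contrast and the median was -0.377 at CT1; the calls named for genes of the other lists were lost too (adjusted p from 0.198 to 0.535). Replicate numbers did not pair the libraries: deviations of 30 same-numbered pairs correlated at -0.316 to 0.579, with 11 pairs over 0.1, and 2 of 24 libraries matched their own number best. Depth limits Rpl24, Rps23, Rpl3l and Rps27rt, at under 1 CPM on average.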

Other observations

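The members Rpl23a, Rpl29 and Rps29 had unusual spreads from library to library, and they were chosen after their values were seen. Rpl23a, a large-subunit protein, was at 12.01, 22.7 and 24.9 CPM in WT CT19 replicate 2, WT CT1 replicate 5 and KO CT22 replicate 2, and at most 3.92 CPM in the other libraries. Rpl29, another large-subunit protein, was at 3.11 to 9.66 CPM in some libraries and at most 1.15 CPM in the rest, in both genotypes. In KO at CT1 its values were 0, 3.73 and 5.38 CPM. Rps29 ran from 28.8 to 176.2 CPM over the 24 libraries, while Rps15 ran from 130.8 to 352.9 CPM. Rpl23a and Rpl29 have 14 and 3 annotated pseudogene copies, Rps29 has 1, and the part of such copies in these values was not tested.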
